A study of Homo sapiens with 4 samples.

Results

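The genes described here encode voltage-gated sodium, calcium and potassium channels and their close relatives. They were chosen by symbol among the protein-coding genes of HEK293T cells in which RPRD1B had been knocked down. The symbols taken were those of the sodium channel genes (SCN), the 4 groups of calcium channel genes (CACNA1, CACNA2D, CACNB, CACNG) and the potassium channel genes (KCN). Of 69222 gene identifiers, 136 matched these symbols, and the 96 with a summed count of 40 or more over the 4 libraries were kept. HEK293T is an established human embryonic kidney cell line. Poly(A) RNA was measured in 2 samples that had received a control shRNA (shCtrl) and 2 that had received an shRNA against RPRD1B (shRPRD1B), in both cases by lentivirus. RPRD1B is a protein that binds the C-terminal domain of RNA polymerase II. The title of the study places the work on the polyadenylation of cell cycle genes, so the channel genes were not its subject. Since no label states that the 2 samples of a group came from separate cultures or viral transductions, p-values measure nothing beyond the spread of these samples, and that spread may be technical.

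Voltage-gated channels are membrane proteins whose pore opens when the voltage across the membrane changes. A pore-forming alpha subunit selects sodium, calcium or potassium ions, and accessory subunits alter its trafficking and gating. Sodium channels carry the upstroke of the action potential, calcium channels couple voltage to secretion, contraction and gene expression, and potassium channels repolarise the membrane. Most are best known from neurons, heart and skeletal muscle, while HEK293T cells are known to have small native currents and are widely used to express cloned channels. The label of the group is broader than its name. Of the 96 genes, 45 encode alpha subunits of channels that are gated by voltage in the strict sense, 8 of them silent Kv subunits, which form no channel alone. A further 20 encode inward rectifiers (KCNJ) and two-pore leak channels (KCNK), 8 belong to the channels opened by calcium or sodium and their beta subunits (KCNM, KCNN, KCNT), and 23 encode other accessory subunits.

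The libraries held between 47732913 and 65572391 counts. RPRD1B itself, the check of the labels, stood at 50.4 and 50.1 CPM (counts scaled to library size, with TMM factors) in the shCtrl libraries and at 27.2 and 35.5 CPM in the shRPRD1B libraries. Its log2 fold change was −0.68 ± 0.16 (SE), and it did not pass edgeR's quasi-likelihood test (Benjamini-Hochberg adjusted p = 0.448), although it passed in DESeq2 (adjusted p = 0.0467). Chi-square per degree of freedom was 8.97 between the shCtrl libraries and 98.6 between the shRPRD1B libraries, so the knockdown libraries stood further apart. With 2 samples against 2, an exact two-sided permutation test cannot give a p under 0.333. Of 8 markers of kidney tubule cells, only LRP2 was above 1 CPM in any library, and UMOD was at 0 throughout. POLR2A and LDHA, which every cell uses, had only 37 to 70 and 20 to 50 counts per library, so a low count of a channel gene does not show a low level of its transcript.

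All 96 channel genes were among the 20319 genes tested. CACNA1E, KCNK3 and KCNN2 had no shCtrl library past the low-count filter and entered only through the shRPRD1B libraries, so they had to differ. KCNRG and CACNA1A had 1 such library and also needed the knockdown to enter. At an adjusted p under 0.05, edgeR called 0 of the 96 higher and 0 lower, where it called 0.0295% of all tested genes higher and 0.0394% lower. At an unadjusted p under 0.05, 19 channel genes were higher and 2 lower, against 3.55% and 3.94% of all tested genes. With limma voom, 0 channel genes were called in either direction, but so were 0% of all tested genes. DESeq2 called 7 channel genes higher at an adjusted p under 0.05 and 0 lower, against 0.62% and 0.561% of all genes. Among these 7 were KCNC1, KCND3, KCNA2 and KCNA6, which encode pores of the Kv alpha family, the calcium channel gene CACNA1B and the sodium channel beta subunit gene SCN3B. For 40 channel genes the groups were apart with shRPRD1B on the higher side, and for 9 with shRPRD1B on the lower side, against 20.3% and 20.6% of all tested genes. The count of calls depended on which library was used. Without either shCtrl library it was 0 higher and 0 lower. Without shRPRD1B 1 it was 20 higher and 16 lower, against 14.6% and 14.4% of all tested genes, shares near which the channel genes lay. Without shRPRD1B 2 it was 23 higher and 1 lower, against 5.91% and 4.47%. A sample left alone in its group is there taken to vary as much as the pair of the other group. At an unadjusted p under 0.05, higher genes numbered 15 without shCtrl 1 (1.36% of all tested genes), 10 without shCtrl 2 (1.4%), 23 without shRPRD1B 1 (19.5%) and 36 without shRPRD1B 2 (12.8%). Lower genes numbered 1 (1.52%), 1 (1.73%), 18 (19.5%) and 5 (11.1%) in the same order.

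The fold changes of the channel genes lay mostly above 0. The median log2 fold change of the 96 was 0.17, beside 0.00 for all tested genes, and it was 0.08 without shRPRD1B 1 and 0.25 without shRPRD1B 2. Positive log2 fold changes were found in 63 of 96 channel genes, against 50.5% of all tested genes. Above 1 were 16 channel genes, against 2.74% of all tested genes, and below −1 was only KCNH3, against 2.77%. Of these 16, CACNA1E, KCNK3 and KCNN2 entered the test only through the knockdown libraries, and KCNRG also needed them. That count was thus partly set by entry. Among the 67 channel genes with a mean of at least 1 CPM the median was 0.10, with 14 higher and 2 lower at an unadjusted p under 0.05. Over all tested genes of that level the median was 0.01, with 3.71% higher and 3.99% lower. The strictly voltage-gated pores had a median of 0.39, with 34 of 45 positive. At an unadjusted p under 0.05, 13 of them were higher and 1 lower, against 3.55% and 3.94% of all tested genes. CACNA1E, among these 13, entered only through the knockdown libraries. The inward rectifiers and two-pore channels had a median of −0.05, with 9 of 20 positive and 1 higher at that threshold. The latter was KCNK3, which entered only through the knockdown libraries. The difference between these sets was not tested.

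**Figure D1:**
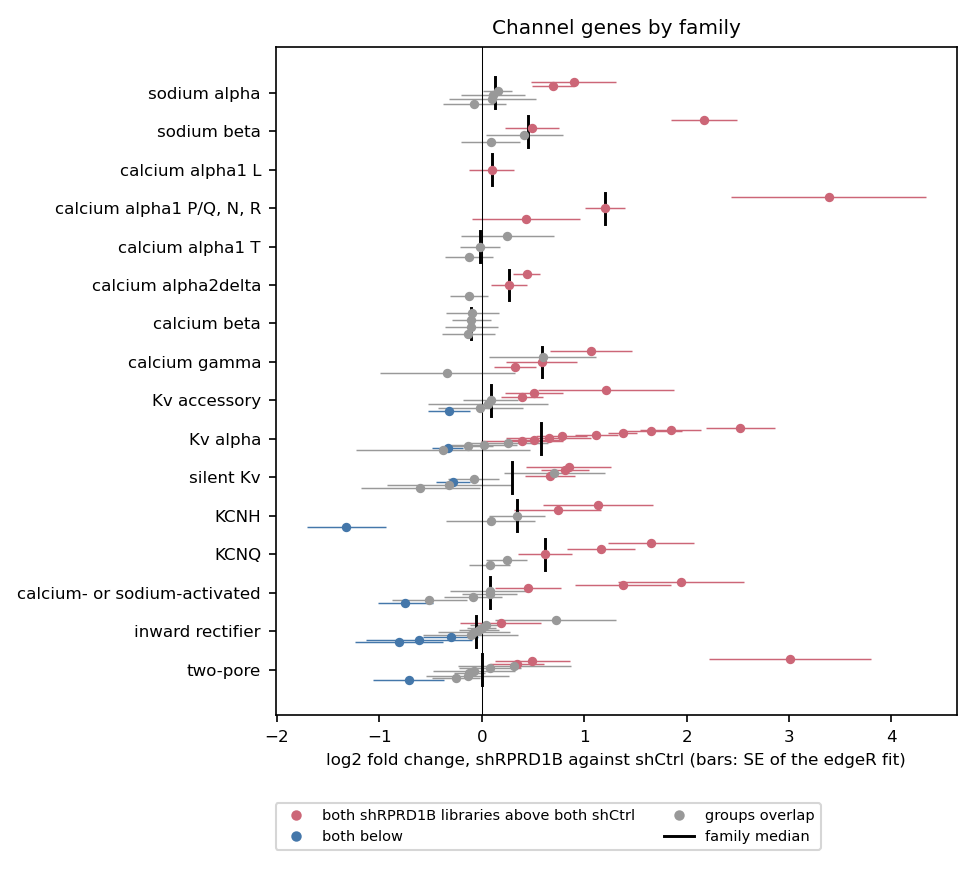
Fitted log2 fold change (x axis, shRPRD1B against shCtrl) of the 96 channel genes, one row per family, with the SE of the edgeR fit as a bar and the family median as a black line. Red marks genes with both shRPRD1B libraries above both shCtrl libraries, blue the reverse and grey overlapping groups. The KCNQ, sodium beta and P/Q, N, R calcium families lie wholly to the right of 0, and the 4 calcium beta genes lie just to its left. In the P/Q, N, R family, CACNA1E and CACNA1A needed the knockdown libraries to pass the low-count filter.

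The Kv alpha family holds the KCNA, KCNB, KCNC and KCND genes, whose proteins assemble as tetramers into the classical delayed rectifier and A-type potassium channels. Of its 14 genes, 6 were higher at an unadjusted p under 0.05 and 0 lower, against 3.55% and 3.94% of all tested genes. The median log2 fold change was 0.58. KCNC1, which encodes Kv3.1, a fast channel of neurons that fire at high rates, had the smallest p of all channel genes. Its shCtrl libraries read 15.2 and 13.5 CPM, its shRPRD1B libraries 35.7 and 38.7 CPM, so the groups lay far apart. The log2 fold change was 1.38 ± 0.14, with an adjusted p of 0.0775 in edgeR and 7.88e-12 in DESeq2. KCND3 encodes Kv4.3, an A-type channel of heart and brain. It read 0.359 and 0.308 CPM in shCtrl and 1.95 and 1.90 CPM in shRPRD1B, from 17, 15, 128 and 104 counts. Its log2 fold change of 2.52 ± 0.34 had an adjusted p of 0.147 in edgeR and 0.000211 in DESeq2, and the libraries within each group nearly coincided.

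KCNA2, the gene of Kv1.2, a channel of axons, had 0.887 and 1.32 CPM against 3.85 and 3.06 CPM, a log2 fold change of 1.65 ± 0.31 (adjusted p = 0.320 in edgeR, 0.00485 in DESeq2). Its groups did not overlap. KCNA6 (Kv1.6) read 2.47 and 2.90 CPM in shCtrl, against 5.69 and 5.98 CPM in shRPRD1B, and its log2 fold change was 1.12 ± 0.21 (adjusted p = 0.324 in edgeR, 0.00854 in DESeq2). KCNA6 is uncertain, since all of its exon length lies within exons annotated to GALNT8 on the same strand, and how such reads were assigned is not given in the sources used here. GALNT8 had 319 counts over the 4 libraries and KCNA6 had 959. KCNA3 (Kv1.3, known from T cells) read 3.48 and 2.86 CPM against 4.65 and 6.26 CPM and did not pass in either tool, with a log2 fold change of 0.78 ± 0.25.

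Not all Kv alpha genes had higher values in the knockdown. KCNC4 lay lower in both knockdown libraries, with 73.9 and 69.3 CPM against 63.8 and 49.8 CPM and a log2 fold change of −0.33 ± 0.15. KCNC1 and KCNC4, of the same subfamily, thus lay on opposite sides of 0. KCND1 (log2 fold change −0.13 ± 0.24), KCND2 (0.25 ± 0.39) and KCNB2 (0.02 ± 0.33) had overlapping groups. KCNA4 (Kv1.4) had 3, 22, 11 and 13 counts and its direction depended on the tool, at −0.38 ± 0.85 in edgeR and 0.14 with limma voom.

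Promoter sequences, 250 bases before to 50 bases after an annotated start of transcription of each gene, were taken from RefSeq (GRCh38.p14) for 67 of the 96 genes. That start is not always the outer end of the gene. The window of CACNA1E (chr1:181483267-181483566, plus strand), for example, lies inside a gene that begins at 181317699. The shares and CpG counts below include such windows. Those of KCND3, KCNC1 and KCNA2 are shown because these 3 Kv alpha genes had higher values together while their promoters differ widely in CpG content. The CpG dinucleotides are in capitals. The KCND3 promoter (chr1:111989619-111989918, minus strand) holds 53 CpG and is 81.7% G or C, that of KCNC1 (chr11:17734531-17734830, plus strand) holds 44 and is 78.3%, and that of KCNA2 (chr1:110631391-110631690, minus strand) holds 4 and is 50.3%.
KCND3: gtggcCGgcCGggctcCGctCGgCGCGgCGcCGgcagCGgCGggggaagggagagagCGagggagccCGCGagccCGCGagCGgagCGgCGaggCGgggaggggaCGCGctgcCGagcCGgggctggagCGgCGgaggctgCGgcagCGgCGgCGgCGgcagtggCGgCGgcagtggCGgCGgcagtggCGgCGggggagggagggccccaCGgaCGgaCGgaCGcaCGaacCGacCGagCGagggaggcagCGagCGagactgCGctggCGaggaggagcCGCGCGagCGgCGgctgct
KCNC1: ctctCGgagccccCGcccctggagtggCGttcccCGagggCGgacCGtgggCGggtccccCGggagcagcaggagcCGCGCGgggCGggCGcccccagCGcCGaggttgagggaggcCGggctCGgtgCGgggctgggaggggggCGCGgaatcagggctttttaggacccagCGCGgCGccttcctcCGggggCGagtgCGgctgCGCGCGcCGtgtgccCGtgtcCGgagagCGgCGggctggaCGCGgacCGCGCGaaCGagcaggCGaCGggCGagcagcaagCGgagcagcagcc
KCNA2: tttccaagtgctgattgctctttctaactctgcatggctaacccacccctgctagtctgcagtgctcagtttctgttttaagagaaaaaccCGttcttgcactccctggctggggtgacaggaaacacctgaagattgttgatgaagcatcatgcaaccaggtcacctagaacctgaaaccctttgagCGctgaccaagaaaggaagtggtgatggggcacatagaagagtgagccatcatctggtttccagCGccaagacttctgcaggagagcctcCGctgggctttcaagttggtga
The promoters of the 67 channel genes held from 1 to 56 CpG. Of the 31 with at least 26 CpG, the median of the tested genes' promoters, 18 had a positive log2 fold change, with a median of 0.09. Of the 36 with fewer, 24 were positive, with a median of 0.25. Genes with higher values were thus found with CpG-rich and with CpG-poor promoters, and the difference between these sets was not tested.

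Many neuronal genes are held down outside neurons by the repressor REST, which binds a long element. Each of its cores, and the TATA motif, was searched on both strands of the promoters. The first core (CAGCACC) was found in 10.4% of the 67 channel promoters and in 7.64% of all 27305 promoters of this length. For the second core of the same element (GGACAG) these shares were 22.4% and 20.5%. The motif of the TATA box, which places the start of transcription in a minority of genes (TATAAA), was present in 5.97% of channel promoters, in 12.0% of all and in 5.98% of the promoters of tested genes. Matches of different motifs were allowed to overlap. Both cores were in 5 channel promoters (7.46%, against 2.03% of all), those of KCNK3, KCNS3, KCNH5, KCNH2 and KCNH6. None of the 3 motifs was in the windows of KCNC1, KCND3, CACNA1B, KCNA2 or KCNA6. KCNK3 is shown because it had one of the largest fold changes, although it entered the test only through the knockdown libraries. It holds both cores close together but on opposite strands, while the KCNH5 promoter, not shown, holds them close together on the same strand. The KCNK3 window is chr2:26692472-26692771 (plus strand, GRCh38.p14), with both cores in capitals wherever they occur on either strand. With the first transcribed base as 0, the first core begins at −31 on the minus strand, and the second core at −21 on the plus strand and at −211 on the minus strand. A match of letters is a description and not a site.
KCNK3: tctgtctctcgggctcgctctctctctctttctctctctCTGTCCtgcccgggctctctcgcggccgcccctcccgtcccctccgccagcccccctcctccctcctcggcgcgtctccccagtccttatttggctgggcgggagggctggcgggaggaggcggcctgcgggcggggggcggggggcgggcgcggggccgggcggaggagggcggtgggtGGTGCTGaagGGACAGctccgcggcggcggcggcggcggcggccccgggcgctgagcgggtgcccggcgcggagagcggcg

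**Figure D2:**
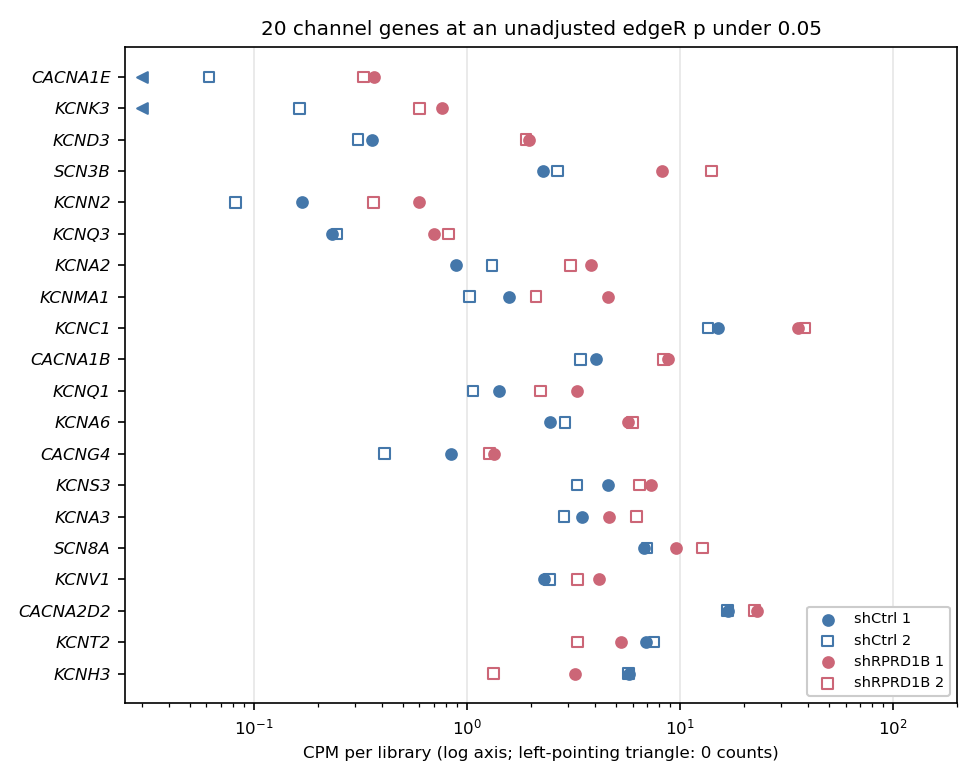
CPM per library (x axis, log scale) of 20 of the 21 channel genes at an unadjusted edgeR p under 0.05, ordered by fold change. Circles are the first and squares the second library of a group, blue is shCtrl and red shRPRD1B. In each gene shown both red symbols lie on the same side of both blue ones, to the left in KCNT2 and KCNH3 and to the right in the others. CACNA1E, KCNK3 and KCNN2 passed the low-count filter only through the shRPRD1B libraries.

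The silent Kv subunits (KCNF, KCNG, KCNS, KCNV) modify the channels formed by Kv2 alpha subunits. KCNS3 read 4.60 and 3.29 CPM in shCtrl against 7.31 and 6.48 CPM in shRPRD1B, and KCNV1 read 2.30 and 2.45 CPM against 4.20 and 3.30 CPM. Both were higher at an unadjusted p under 0.05, with log2 fold changes of 0.81 ± 0.23 and 0.66 ± 0.24, and neither passed after adjustment in edgeR (0.577 and 0.656) or DESeq2 (0.222 and 0.70). KCNG1, at 52.7, 50.3, 61.4 and 36.0 CPM, had knockdown libraries on opposite sides of the controls. The family of 8 had a median log2 fold change of 0.29, with 4 of 8 positive. The 7 cytoplasmic Kv accessory genes encode beta subunits (KCNAB), calcium-binding partners (KCNIP) and the regulator KCNRG. Of these, 0 were at an unadjusted p under 0.05, against 7.49% of all tested genes. KCNAB2 came nearest, with 14.9 and 16.7 CPM against 24.4 and 17.0 CPM and a log2 fold change of 0.39 ± 0.21.

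The KCNQ genes encode Kv7 channels, which carry the M-current in neurons and, in the case of KCNQ1, a repolarising current of the heart. All 5 had positive log2 fold changes, with a median of 0.62, and KCNQ3 and KCNQ1 were at an unadjusted p under 0.05, as were 7.49% of all tested genes. KCNQ3 read 0.232 and 0.247 CPM against 0.702 and 0.821 CPM, a log2 fold change of 1.65 ± 0.42 (adjusted p = 0.490). KCNQ1 read 1.41 and 1.07 CPM against 3.30 and 2.23 CPM, a log2 fold change of 1.16 ± 0.33 (adjusted p = 0.564). KCNQ5 had overlapping groups, at 10.9 and 12.4 CPM against 11.8 and 15.8 CPM.

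KCNH3 had the lowest fold change of the 96 genes. It belongs to the KCNH family and encodes an ELK-type channel known from the forebrain. It read 5.805 and 5.75 CPM in shCtrl and 3.20 and 1.33 CPM in shRPRD1B, a log2 fold change of −1.32 ± 0.39 that did not pass after adjustment (0.577 in edgeR, 0.104 in DESeq2). The value rested on the knockdown libraries, at −2.11 without shRPRD1B 1 (edgeR adjusted p = 3.33e-05) and −0.85 without shRPRD1B 2 (adjusted p = 0.0109), and the adjusted p was 0.9999 without either shCtrl library. KCNH2, the hERG channel gene of cardiac repolarisation and the most abundant KCNH gene per kilobase, read 14.2 and 15.1 CPM against 23.5 and 13.6 CPM, with the knockdown libraries on opposite sides of the controls. The other 3 had positive log2 fold changes of 1.14 ± 0.54 (KCNH5), 0.74 ± 0.42 (KCNH4) and 0.09 ± 0.43 (KCNH6).

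The channels opened by calcium or sodium went both ways. KCNN2 (SK2, a small-conductance calcium-activated channel) had 8 and 4 counts in shCtrl and 39 and 20 in shRPRD1B, a log2 fold change of 1.95 ± 0.61 in a gene that entered the test only through the knockdown libraries. KCNMA1, the pore of the large-conductance BK channel, read 1.58 and 1.03 CPM against 4.58 and 2.12 CPM, a log2 fold change of 1.38 ± 0.47. KCNT2, the sodium-activated Slick channel, read 6.97 and 7.58 CPM against 5.31 and 3.30 CPM, a log2 fold change of −0.75 ± 0.27. None of these 3 passed after adjustment, with edgeR values between 0.601 and 0.651. KCNMB4, a BK beta subunit and the most abundant of these 8 genes per kilobase, read 21.8, 21.5, 28.98 and 16.6 CPM.

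The inward rectifiers and two-pore channels set the resting potential. Of 10 KCNJ genes, 0 were at an unadjusted p under 0.05, against 7.49% of all tested genes. The smallest p was that of KCNJ10 (0.781 and 0.534 CPM against 0.427 and 0.310 CPM, log2 fold change −0.81 ± 0.43). KCNJ11, the pore of the ATP-sensitive channel, read 15.9, 17.0, 17.0 and 15.9 CPM, with a log2 fold change of 0.00 ± 0.14. KCNJ8, the gene of another ATP-sensitive pore, read 25.7, 20.9, 23.8 and 24.0 CPM, and KCNJ12 read 34.9, 35.4, 40.6 and 28.2 CPM. KCNJ12 has the near-identical copy KCNJ18, so its reads could be split between them. Of 10 KCNK genes, only KCNK3 (TASK-1, an acid-sensitive leak channel) was at an unadjusted p under 0.05. It had 0 and 8 counts in shCtrl and 50 and 33 in shRPRD1B. The ratio of its summed counts per library size was 8.28, with an exact 95% interval of 4.01 to 19.8 that covers counting error only, and the adjusted p was 0.507. KCNK3 entered the test only through the knockdown libraries. Those libraries therefore had to read higher, and the interval gives no support. KCNK5 read 21.6, 21.5, 21.6 and 18.0 CPM and KCNK6 read 3.504, 4.17, 4.81 and 2.08 CPM.

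Among the sodium channel genes, SCN3B had the smallest p. Its product, the beta-3 subunit, is a membrane protein that modifies the gating of the alpha subunits. SCN3B read 2.28 and 2.67 CPM in shCtrl and 8.29 and 14.1 CPM in shRPRD1B, a log2 fold change of 2.17 ± 0.33 (adjusted p = 0.202 in edgeR, 2.2e-08 in DESeq2). Both knockdown libraries lay far above both controls, and they differed from each other more than the controls did. All 4 expressed beta subunit genes had positive log2 fold changes, among them 0.49 ± 0.26 for SCN2B and 0.42 ± 0.38 for SCN4B. SCN4B, at 5.76, 4.29, 8.97 and 4.34 CPM, was high only in the first knockdown library.

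Of 6 expressed alpha subunits, only SCN8A was at an unadjusted p under 0.05, as were 7.49% of all tested genes. SCN8A encodes Nav1.6, the main sodium channel of the axon initial segment. It read 6.78 and 7.03 CPM in shCtrl and 9.58 and 12.8 CPM in shRPRD1B, a log2 fold change of 0.69 ± 0.21 (adjusted p = 0.577 in edgeR, 0.215 in DESeq2). SCN9A (Nav1.7) read 2.17 and 2.08 CPM against 2.53 and 5.47 CPM, a difference carried by the second knockdown library. SCN2A (Nav1.2), at 2.81, 1.97, 1.89 and 2.68 CPM, had a log2 fold change of −0.07 ± 0.31.

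The presynaptic P/Q-, N- and R-type pores (CACNA1A, CACNA1B, CACNA1E) all had both knockdown libraries above both controls, as did 20.3% of all tested genes. CACNA1E and CACNA1A needed the knockdown libraries to pass the low-count filter, so this shared direction was partly set by entry. CACNA1B, the N-type pore Cav2.2 that triggers transmitter release, read 4.05 and 3.41 CPM in shCtrl and 8.79 and 8.37 CPM in shRPRD1B. Its log2 fold change was 1.20 ± 0.19 (adjusted p = 0.242 in edgeR, 0.000304 in DESeq2). CACNA1E, the R-type pore, had 0 and 3 counts in shCtrl and 24 and 18 in shRPRD1B. The ratio of its summed counts per library size was 11.2, with an exact 95% interval of 3.57 to 56.4 for counting error only, and the adjusted p was 0.5004. As no shCtrl library of CACNA1E passed the filter, the ratio was partly set by entry and the interval gives no support. CACNA1A, the P/Q-type pore, stood at 0.253 and 0.164 CPM against 0.305 and 0.255 CPM, so that its second knockdown library barely passed the higher control.

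CACNA1H, the T-type pore Cav3.2, was the most abundant of the 96 genes per kilobase of exon, at 10.2 CPM per kilobase in shCtrl and 10.0 in shRPRD1B. It read 87.0 and 87.8 CPM in shCtrl and 102 and 70.1 CPM in shRPRD1B. The controls nearly coincided, the knockdown libraries lay on either side of them, and the log2 fold change was −0.02 ± 0.19. The next 4 in abundance per kilobase, over both groups, were KCNJ8, KCNG1, KCNJ12 and KCNK5. CACNA1I, another T-type pore, read 0.908, 0.904, 1.45 and 0.657 CPM, with the same arrangement of libraries. The only L-type pore above the minimum was CACNA1D (Cav1.3), at 2.45, 2.53, 2.67 and 2.65 CPM and a log2 fold change of 0.10 ± 0.22.

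Of the 12 accessory calcium channel genes, 2 were higher at an unadjusted p under 0.05 and 0 lower, against 3.55% and 3.94% of all tested genes. CACNA2D2, an alpha2delta subunit that brings channels to the surface, read 16.8 and 16.7 CPM against 23.0 and 22.4 CPM, a log2 fold change of 0.44 ± 0.13 with an unadjusted p of 0.0164 and an adjusted p of 0.577. It was the most abundant alpha2delta gene per kilobase. All 4 beta subunit genes, whose cytoplasmic products stabilise the alpha1 pore, had log2 fold changes between −0.13 and −0.09 and overlapping groups. CACNB3, the most abundant, read 22.0, 22.3, 25.5 and 14.9 CPM, and CACNB2 read 6.10, 6.84, 5.68 and 6.40 CPM. The gamma subunit genes, several of which encode AMPA receptor partners, had a median log2 fold change of 0.58. CACNG4 read 0.844 and 0.411 CPM against 1.34 and 1.28 CPM, a log2 fold change of 1.07 ± 0.40 (adjusted p = 0.660). CACNG8, at 11.2 and 11.6 CPM against 12.0 and 16.6 CPM, was the most abundant, with a log2 fold change of 0.33 ± 0.20.

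**Figure D3:**
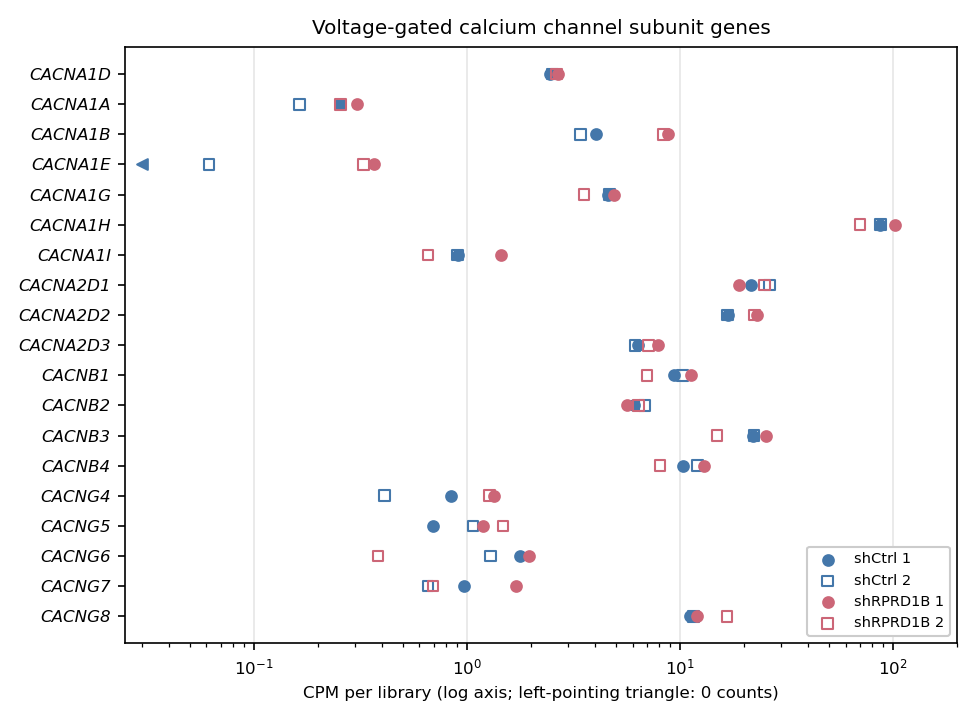
CPM per library (x axis, log scale) of the 19 calcium channel subunit genes, from the L-type pore at the top through the P/Q-, N- and R-type and T-type pores to the alpha2delta, beta and gamma subunits. Circles are the first and squares the second library of a group, blue is shCtrl and red shRPRD1B. CACNA1B and CACNA1E show the groups apart, while in the T-type pores the red circle lies above the blue symbols and the red square below them. CACNA1E passed the low-count filter only through the shRPRD1B libraries.

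The knockdown libraries differed from each other more than the controls did. The median absolute log2 ratio between the 2 libraries of a group was 0.46 in shRPRD1B and 0.22 in shCtrl over the 96 channel genes, beside 0.32 and 0.12 over all tested genes. Relative to the mean of the controls, 74 of 96 channel genes were higher in shRPRD1B 1 and 57 in shRPRD1B 2, with median log2 differences of 0.25 and 0.10. Of all 20319 tested genes, 10211 and 10159 were higher, with a median of 0.00 in each library. In 21 channel genes the first knockdown library lay above both controls and the second below both (21.9%, against 13.5% of all tested genes), and in 3 the reverse held (3.13%, against 13.3%). The 21 included the 3 T-type pores, 3 of the 4 calcium beta genes and KCNJ4, KCNK6 and CACNG6. KCNJ4 read 3.76 and 3.43 CPM in shCtrl against 9.22 and 2.46 CPM in shRPRD1B, and CACNG6 read 1.77, 1.29, 1.95 and 0.383 CPM. CACNG7 read 0.971, 0.658, 1.71 and 0.693 CPM. The 7 genes called by DESeq2 had both knockdown libraries far above the controls.

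**Figure D4:**
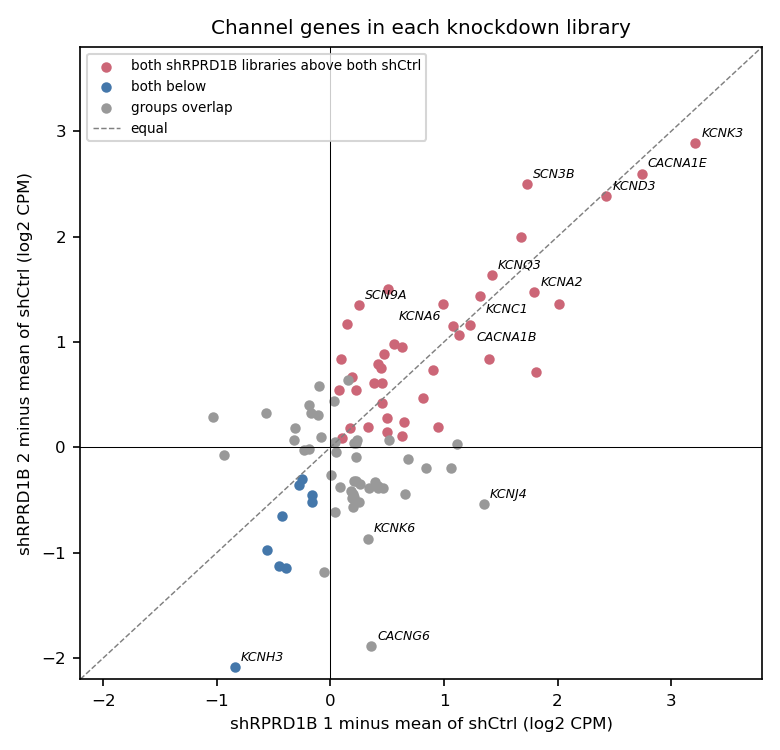
Difference from the mean of the shCtrl libraries (log2 CPM) in shRPRD1B 1 (x axis) and shRPRD1B 2 (y axis) for the 96 channel genes, with colours as in the plot of families and a dashed line where both libraries are equal. The genes with the largest differences lie near the line at the upper right, and a group of grey points, in which the first library is above and the second below the controls, lies at the lower right. Both axes share the same controls. CACNA1E and KCNK3, at the upper right, passed the low-count filter only through the shRPRD1B libraries.

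At the lower edge of the count minimum, CACNA1E (45 counts in all) and KCNA4 (49) were just inside. SCN3A (6, 12, 12 and 8 counts) and KCNE1 (4, 13, 11 and 9 counts) were just outside. Of the 40 matching genes left out, 12 had no count in any library, and 4 had enough to be tested.

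Of 64 genes whose products bind, anchor or work beside these channels, 47 were tested, with 6 higher and 1 lower at an unadjusted p under 0.05 (7 in all, against 7.49% of all tested genes) and a median log2 fold change of 0.10. UNC80, a subunit of the NALCN sodium leak channel, read 0.654 and 0.678 CPM against 2.70 and 2.34 CPM, a log2 fold change of 1.92 ± 0.29 (adjusted p = 0.208 in edgeR, 0.00135 in DESeq2). JPH3, a junctophilin that ties the plasma membrane to calcium stores, read 30.7 and 29.1 CPM against 68.0 and 51.9 CPM, a log2 fold change of 1.01 ± 0.16 (adjusted p = 0.242 in edgeR, 7.97e-05 in DESeq2). These were the only 2 partners called by DESeq2. NALF2, another NALCN partner, and FGF12, which binds sodium channel tails, had log2 fold changes of 0.48 ± 0.12 and 0.64 ± 0.18. LGI1, a secreted protein that acts on Kv1 channels, read 0.781 and 0.658 CPM against 0.290 and 0.146 CPM, a log2 fold change of −1.67 ± 0.47 (adjusted p = 0.561). This count of 7 partners was 2 without shCtrl 1 (2.88% of all tested genes), 5 without shCtrl 2 (3.13%), 25 without shRPRD1B 1 (39.0%) and 16 without shRPRD1B 2 (23.9%).

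Markers of other cell types were read from the same fit. Of 14 neuronal markers 11 were tested, with a median log2 fold change of 0.57. At an unadjusted p under 0.05, 5 were higher (SYN1, INA, RBFOX3, ELAVL4, SNAP25) and 0 lower, against 3.55% and 3.94% of all tested genes. In edgeR 0 passed the adjusted threshold, while DESeq2 called SYN1 and INA higher (adjusted p = 0.0185 and 0.0236), against 0.62% of all tested genes. The groups were apart with shRPRD1B on the higher side in 8 markers and on the lower side in 1, against 20.3% and 20.6%. ELAVL4, with 2 and 7 counts in shCtrl and 25 and 20 in shRPRD1B, passed the low-count filter only through the knockdown libraries. Of the 11 tested, 8 had a positive log2 fold change, while NEFM, TUBB3 and NEFL had −0.30 ± 0.16, −0.44 ± 0.42 and −0.01 ± 0.18. The markers' summed level was 260 and 252 CPM in shCtrl and 294 and 235 CPM in shRPRD1B, most of it from NEFL and NEFM, which HEK293 cells are known to express. DCX, STMN2 and ELAVL3, the neuronal markers that were not tested, had 0 to 6 counts in every library, which leaves their expression open. CHGB, the only endocrine marker tested of 5, read 0.570 and 0.616 CPM against 3.40 and 5.18 CPM (adjusted p = 0.129 in edgeR, 4.98e-09 in DESeq2). Of 4 fibroblast markers, LUM and COL1A1 were tested, and both were lower at an unadjusted p under 0.05. DESeq2 called LUM lower (adjusted p = 0.0217) but not COL1A1 (adjusted p = 0.083). The 10 striated muscle markers had 7 tested and 0 at an unadjusted p under 0.05, with summed levels of 41.0 and 44.3 CPM against 42.7 and 50.8 CPM. Of 6 glial markers 4 were tested, of 3 leukocyte markers 1, and all 8 genes of the usual HEK293 background (such as KRT8, KRT18 and VIM), with 0 of them at an unadjusted p under 0.05. The summed level of that background was 592 and 579 CPM in shCtrl against 617 and 510.3 CPM in shRPRD1B. In bulk RNA, more cells of a type and more RNA per cell cannot be told apart. The part of these markers in the values of the channel genes was not tested.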

How the data were processed

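The authors deposited raw read counts per gene for each of 4 samples, which their titles place in 2 groups of 2. The submitters' processing notes name Trim Galore, HISAT2, featureCounts and hg38. The sources used here do not give versions, annotation release, strand setting or the handling of reads with several matches, so overlapping, antisense and near-identical genes cannot be told apart.

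Counts were tested with edgeR 4.0.16 in R 4.3.3 (TMM factors, filterByExpr with a minimum count of 10, robust quasi-likelihood fit, group as the only term). Benjamini-Hochberg adjustment ran over all 20319 genes left, with a threshold of 0.05. SEs come from that fit. Log2 differences of single libraries used log2 CPM with a prior count of 2. The alternatives were DESeq2 1.42.0, limma voom (limma 3.58.1), RLE factors, library size alone, other filters, other minimum counts of 20 and 200 for members, a replicate block, leaving out each library and, added after seeing the data, edgeR's older quasi-likelihood fit. The test was checked on simulated data.

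Symbols matched 62686 of 69222 identifiers. Symbols, biotypes and coordinates came from RefSeq (GRCh38.p14), and exon lengths and overlaps from GENCODE 29. The channel genes, their families, partners and marker lists were chosen with earlier results of these data known, so no list was tested. Genes were named by rule: those at an adjusted p under 0.05 by edgeR or DESeq2 or at an unadjusted edgeR p under 0.05, in each family the most abundant per kilobase and the smallest p, the 5 most abundant of all, the 2 on each side of the minimum of 40 counts, the 5 with the widest gap between libraries of a group among genes of at least 1 CPM, the 5 partners with the smallest p and RPRD1B. Some genes that the rule takes are not reported here. Other names were added after their values were seen.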

Additional observations from a re-analysis of the deposited data

How the results depend on the processing

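With DESeq2 the count of channel genes called higher at an adjusted p under 0.05 changed from 0 to 7, against 0.62% of all tested genes. With no low-count filter, which left 37763 genes to test in place of 20319, it was 1 (KCNC1), against 0.0609%. Leaving out one library gave 0 to 23 called higher, where 0.0547% to 14.6% of all tested genes were, and 0 to 16 called lower (0.164% to 14.4%). It gave 10 to 36 higher (1.36% to 19.5%) and 1 to 18 lower (1.52% to 19.5%) at an unadjusted p under 0.05, 2 to 25 partners (2.88% to 39.0%), and a log2 fold change of RPRD1B from −0.88 to −0.50 with an adjusted p under 0.05 without either shRPRD1B library. The DESeq2 log2 fold change of RPRD1B was −0.68. The replicate numbers are shared by the groups, but same-numbered libraries had deviations that correlated only at 0.151 over 11541 genes, with 2 pairs, so the numbers were not taken to pair the samples. With the number as a replicate block, 4 channel genes were called higher (among them KCNC1, KCND3 and SCN3B), against 0.418% of all tested genes, and 4 were lower at an unadjusted p under 0.05, against 5.24%.

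The 19 higher genes kept a positive log2 fold change under every alternative in which they were fitted, with 15 of them fitted when at least 1 CPM in 2 libraries was required. They had been chosen by their p in these same libraries, and in each of them the groups were apart. Their sign could therefore hardly turn, and its stability gives no support. The median log2 fold change of the channel genes was above 0 in all alternatives run, at 0.08 without shRPRD1B 1, 0.09 with the filter of 1 CPM and 0.25 without shRPRD1B 2. Without a shRPRD1B library, the one that remains is taken to vary as little as the shCtrl pair. Smaller adjusted p-values of the named genes in those fits therefore give no support. Signs that turned belonged to genes with overlapping groups, where leaving out a library can readily turn a sign. Without shRPRD1B 1 and without shRPRD1B 2 the log2 fold change was −0.21 and 0.84 for SCN4B, −0.32 and 0.23 for CACNA1H, −0.46 and 0.68 for CACNA1I, −0.57 and 0.20 for CACNB3, −0.51 and 0.26 for KCNG1, −0.11 and 0.69 for KCNH2, and −0.38 and 0.42 for KCNMB4. In the same order it was −0.26 and 0.00387 for KCNK5, −0.31 and 0.21 for KCNJ12, −0.88 and 0.33 for KCNK6, −0.23 and 1.07 for CACNG7, −0.54 and 1.36 for KCNJ4, and −1.99 and 0.35 for CACNG6. Without shCtrl 1 and without shCtrl 2 it was 0.19 and −0.10 for KCNJ8 and −1.17 and 1.62 for KCNA4, which was 0.14 with limma voom. The causes were not tested. Depth limits the 29 channel genes under 1 CPM, whose fold changes rest on few counts.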

Other observations

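Channel genes that lie next to each other in the genome did not share 1 direction. On chromosome 1, KCNA2 (log2 fold change 1.65 ± 0.31) and KCNA3 (0.78 ± 0.25) lie within 500 kb of KCNC4 (−0.33 ± 0.15), whose knockdown libraries were below both controls. On chromosome 11, KCNC1 (1.38 ± 0.14) lies within 500 kb of KCNJ11 (0.00 ± 0.14). On chromosome 12, KCNA6 (1.12 ± 0.21) and KCNA1 (0.65 ± 0.42) both had knockdown libraries above the controls. On chromosome 19, the gamma subunit genes CACNG7 (0.60 ± 0.52), CACNG8 (0.33 ± 0.20) and CACNG6 (−0.34 ± 0.66) had fold changes on both sides of 0. Differences between neighbours were not tested.

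Long non-coding RNA genes named after channel loci numbered 35, of which 8 were tested. At an unadjusted p under 0.05, 0 were higher and 0 lower, against 3.55% and 3.94% of all tested genes. KCNQ1OT1, the antisense transcript of the imprinted KCNQ1 locus, read 11.0 and 12.8 CPM in shCtrl and 8.94 and 13.7 CPM in shRPRD1B, with overlapping groups and a log2 fold change of −0.07 ± 0.24, beside 1.16 ± 0.33 for KCNQ1. KCNJ5-AS1 had the smallest unadjusted p of the 8 (0.145), with 6.80 and 5.42 CPM against 9.11 and 6.84 CPM. The strand setting of the counting is not given in the sources used here, so reads of a gene and its antisense partner cannot be told apart.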
